A study of Danio rerio with 10 samples.

Results

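A group of 29 probe sets read lower in every kind of morphant zebrafish embryo than in control morphants. They were the probe sets, of 15502 measured, whose mean lay at least 0.4 below the control mean (log2 intensity) in dual morphants, in Atg7 morphants and on the Bdh2 array, with each of these 7 arrays below all 3 control arrays. In all 41 probe sets met these conditions, 0.264% of the array, and 658 (4.24%) had all 7 morphant arrays below all 3 control arrays. The embryonic globin probe sets and those of slc4a1a, epb41b, cahz, alas2 and and2, 12 in total, were left out by name, which gave the 29 members. Of the members 21 carried 1 gene symbol and stood for 20 genes, 2 carried several symbols and 6 carried none, and the last 2 kinds are given by probe set name. No probe set met the condition on means and failed that on single arrays. The members were thus selected on their measured differences from control, and these are described below without a test.

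The arrays were 1-colour Affymetrix GeneChips, hybridised with total RNA of whole wild-type embryos at 72 h after fertilization. Each probe set is a group of short oligonucleotides for 1 transcript or, in some cases, for several that share sequence. Fertilized eggs had received 1 to 2 nL of morpholino at 130 micromol/L at the 1- to 2-cell stage, a stable antisense oligomer used to keep a chosen RNA from being translated or spliced. The groups were dual morphants (Atg7 and Bdh2 morpholinos together, 3 arrays), Atg7 morphants (3 arrays), Bdh2 morphants (1 array) and control morphants (3 arrays). Control embryos were injected as well, so injection was shared by all 4 groups, and the morpholino sequences and the number of embryos per array are not given in the sources used here. Array medians of the deposited values lay between 6.33 and 6.38. The bdh2 probe set read 7.38, 7.28 and 7.17 in dual arrays, 7.22, 7.18 and 7.22 in Atg7 arrays, 7.47 in the Bdh2 array and 7.17, 7.07 and 7.27 in control arrays, and RNA levels need not follow a block of translation. It lay 0.30 above the control mean on the Bdh2 array, and no probe set carried atg7 as its only symbol. These values thus do not show whether either morpholino acted on its target. On the actin controls, which read RNA integrity, 3 prime minus 5 prime was 3.83 to 3.92 on dual arrays, 3.86 to 4.05 on Atg7 arrays and 4.30 on the Bdh2 array, against 3.41 to 3.53 on control arrays. The same difference on the GAPDH controls was 1.67 to 1.72 on dual arrays, 1.53 to 1.77 on Atg7 arrays and 1.70 on the Bdh2 array, against 1.53 to 1.63 on control arrays. The actin measure set all morphant arrays apart from control arrays. On GAPDH the dual arrays and the Bdh2 array lay above all control arrays, and the Atg7 and control arrays overlapped. The part of RNA quality in the low member values was not tested.

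As background, Atg7 is an enzyme that starts the conjugation of ubiquitin-like proteins on which autophagosome formation depends, and Bdh2 is a cytosolic dehydrogenase linked in mammals to the synthesis of a siderophore that binds iron. At this stage the larva has working trunk muscle, fin folds stiffened by collagen-like rods called actinotrichia, circulating red cells and neutrophils, and a gut that is about to take over from the yolk. Of the 20 named genes, 7 were on 1 of 31 gene lists, and the other groupings below follow textbook roles. The members included actinodins of the fin fold, calcium-handling genes of fast muscle, acyl-CoA synthetases, genes for handling retinol and vitamin D, lysozyme and an erythroid transcription factor.

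The members lay closest to control in Atg7 morphants, and this was not particular to them. In the fit described below, 3.64% of all probe sets were called lower and 6.26% higher in Atg7 minus control. In dual minus control these shares were 15.9% and 16.7%. The median over the 29 members was -0.70 in dual minus control, -0.47 in Atg7 minus control and -0.97 in Bdh2 minus control, beside medians over all 15502 probe sets of -0.0077, -0.0092 and 0.045. These comparisons share their control arrays. Levels at least 2-fold below control were reached by 7 members in dual morphants, by 0 in Atg7 morphants, where the lowest difference was -0.89, and by 14 on the Bdh2 array. The Atg7 difference was the smallest of the 3 for 22 members, the dual difference for 5 and the Bdh2 difference for 2, and the lowest of the morphant levels was that of the Bdh2 array for 19 members. The Bdh2 value rests on 1 array, set beside means of 3 arrays, and has no replicate spread of its own. The selection required that array to be low, and shares over all probe sets are not given for these counts. They thus describe the members only and do not rank the groups. Within the triplicate groups the median SD of the members was 0.082 in dual, 0.079 in Atg7 and 0.054 in control arrays (n = 3 each).

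**Figure D1:**
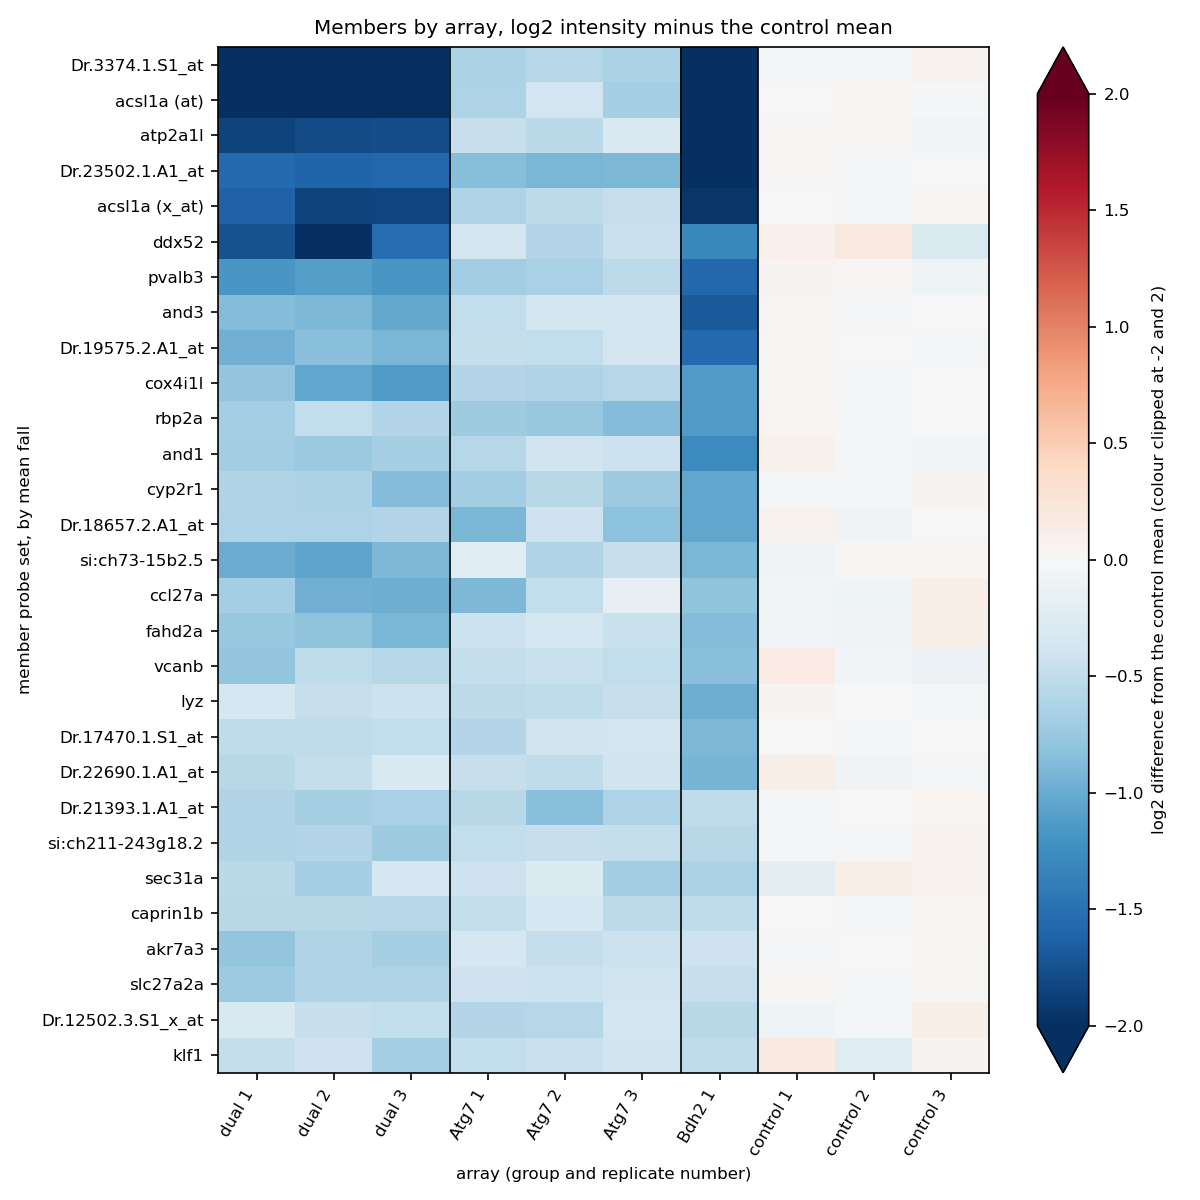
Each row is a member and each column an array, and colour gives the log2 intensity minus the control mean of that member, clipped at -2 and 2. Rows run from the lowest mean difference at the top (Dr.3374.1.S1_at) to the one nearest to 0 (klf1), and the Atg7 columns are paler than the dual and Bdh2 columns in the upper rows.

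The threshold was met narrowly by some members. Just inside it were slc27a2a, fahd2a and and3, with Atg7 differences of -0.407, -0.411 and -0.413. Just outside were cpa5, a carboxypeptidase gene, with -0.3995 in Atg7 morphants, tom1 with -0.397 on the Bdh2 array and serping1, a serpin gene, with -0.396 in Atg7 morphants. The control level of 21 members was at or above the middle of the array and that of 8 was below it, among them both acsl1a probe sets, cyp2r1, ccl27a, sec31a and klf1. No detection calls were used.

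The actinodins and1 and and3 were the fin fold genes among the members. Both encode structural proteins of actinotrichia in fish. The and1 probe set (Dr.924.1.S1_at) read 10.53, 10.48 and 10.56 in dual arrays, 10.66, 10.82 and 10.79 in Atg7 arrays, 9.95 in the Bdh2 array and 11.31, 11.19 and 11.18 in control arrays. That of and3 (Dr.14514.1.S1_a_at, whose suffix marks probes common to several transcripts) read 9.55, 9.52 and 9.40 in dual arrays, 9.93, 10.05 and 10.04 in Atg7 arrays, 8.75 in the Bdh2 array and 10.44, 10.40 and 10.43 in control arrays. In both genes the 4 groups did not overlap, with control highest, then Atg7, then dual, and the Bdh2 array lowest. Differences from control were -0.70 for dual, -0.47 for Atg7 and -1.28 for Bdh2 in and1 and -0.93 for dual, -0.41 for Atg7 and -1.67 for Bdh2 in and3. Since whole embryos were measured, fewer cells of a type and less RNA per cell cannot be told apart, here and in the other tissues. The third actinodin on the array, and2, was left out by name and stood at -1.81 in dual, -1.05 in Atg7 and -2.89 in Bdh2 minus control.

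The selection put no condition on the order of the morphant groups, and this was compared without control arrays. It can still shape that order, since its cutoff was the same for all groups and the Atg7 difference was the smallest for 22 members. The selection also read the same morphant arrays, so the p-values of these comparisons are not independent of it. A limma fit over all 10 arrays was used, with Benjamini-Hochberg adjustment over 15502 probe sets and a threshold of 0.05, and errors beside differences are standard errors of that fit. Dual against Atg7 morphants asked what the Bdh2 morpholino changes where the Atg7 morpholino is present. The labels give the same concentration for all groups and do not split it between the morpholinos of dual morphants. A difference in dose thus cannot be told apart, here or against Bdh2 morphants. and3 was lower in dual than in Atg7 arrays by limma (-0.52 ± 0.063, adjusted p = 6.72e-05), and so was and1 (-0.23 ± 0.066, adjusted p = 0.0175). The and1 call ended without Atg7 replicate 2, Atg7 replicate 3 or dual replicate 2, with differences of -0.20 to -0.22 and adjusted p of 0.0518 to 0.0694, and over all alternatives tried its adjusted p ranged between 0.000741 and 0.0694. Dual against Bdh2 morphants asked what the Atg7 morpholino changes beside the Bdh2 morpholino, and it borrows the spread of the other groups for the lone Bdh2 array. The selection required that array to be low, so this comparison is tilted upward in all members. There both genes were higher in dual arrays by limma, and3 by 0.74 ± 0.089, adjusted p = 0.000245 and and1 by 0.58 ± 0.093, adjusted p = 0.00187.

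A list of fin fold and matrix genes had 21 measured genes besides these 2 members. In dual minus control 3 of them fell and 3 rose (background 15.9% lower and 16.7% higher over the array), in Atg7 minus control 1 fell and 3 rose (3.64% and 6.26%), and in Bdh2 minus control 6 fell and 1 rose (13.2% and 15.0%). Their medians were -0.029, 0.097 and -0.030. Among them and2 had met the selection and was left out by name, so its falls were set in advance. It was the only fall in Atg7 minus control and was among the falls in the other comparisons. The largest falls were those of col10a1a, a collagen gene of cartilage and bone, at -2.69 in dual and -3.72 on the Bdh2 array, and of and2 in Atg7 morphants. The largest rise in each of the 3 was that of col14a1a, another collagen gene, at 0.55, 0.41 and 1.24. vcanb, a member outside this list that encodes the matrix proteoglycan versican, read 6.55, 6.84 and 6.76 in dual arrays, 6.87, 6.89 and 6.85 in Atg7 arrays, 6.51 in the Bdh2 array and 7.503, 7.29 and 7.22 in control arrays. All 7 morphant arrays of vcanb lay between 6.51 and 6.89, and neither tested comparison passed for it (-0.15 ± 0.087, adjusted p = 0.217 in dual minus Atg7, by limma).

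Of skeletal muscle genes, atp2a1l and pvalb3 were members. The first is named for its likeness to the sarcoplasmic reticulum calcium pump gene atp2a1, which clears calcium after contraction, and the second encodes a parvalbumin, a calcium buffer of fast fibres. atp2a1l (Dr.11552.1.S1_at) read 8.35, 8.41 and 8.43 in dual arrays, 9.74, 9.65 and 9.89 in Atg7 arrays, 7.08 in the Bdh2 array and 10.23, 10.23 and 10.14 in control arrays. The Bdh2 array was the lowest by far, dual arrays were next, and Atg7 arrays were nearest to control. Relative to control the level was 3.5-fold lower in dual, 1.35-fold lower in Atg7 and 8.7-fold lower on the Bdh2 array. By limma atp2a1l was lower in dual than in Atg7 arrays (-1.37 ± 0.069, adjusted p = 4e-08) and higher in dual than on the Bdh2 array (1.31 ± 0.098, adjusted p = 9.26e-06).

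pvalb3 (Dr.15359.1.S1_at) read 9.56, 9.62 and 9.56 in dual arrays, 10.04, 10.08 and 10.198 in Atg7 arrays, 9.16 in the Bdh2 array and 10.78, 10.75 and 10.64 in control arrays, with the same order of groups and no overlap. It was lower in dual than in Atg7 arrays (-0.53 ± 0.065, adjusted p = 6.83e-05 by limma) and higher than on the Bdh2 array (0.42 ± 0.091, adjusted p = 0.0112 by limma). Of the other 27 measured genes on a skeletal muscle list, 13 fell and 2 rose in dual, 4 fell and 1 rose in Atg7 and 21 fell and 3 rose in Bdh2 minus control, with medians of -0.16, -0.070 and -0.53. The largest fall among them was that of ldb3a, a gene of the sarcomere's Z-disc, in all 3 comparisons (-0.98, -0.36 and -1.64), and the largest rise was that of the titin gene ttn.2 (2.08, 0.40 and 1.66). Against control, 15.9% of all probe sets fell and 16.7% rose in dual, and 3.64% fell and 6.26% rose in Atg7. On the Bdh2 array 13.2% fell and 15.0% rose against control. In dual minus Atg7 14 of the 27 fell and 4 rose (17.2% lower and 15.8% higher over the array). In dual minus Bdh2 1 fell and 13 rose (5.53% and 6.53%).

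**Figure D2:**
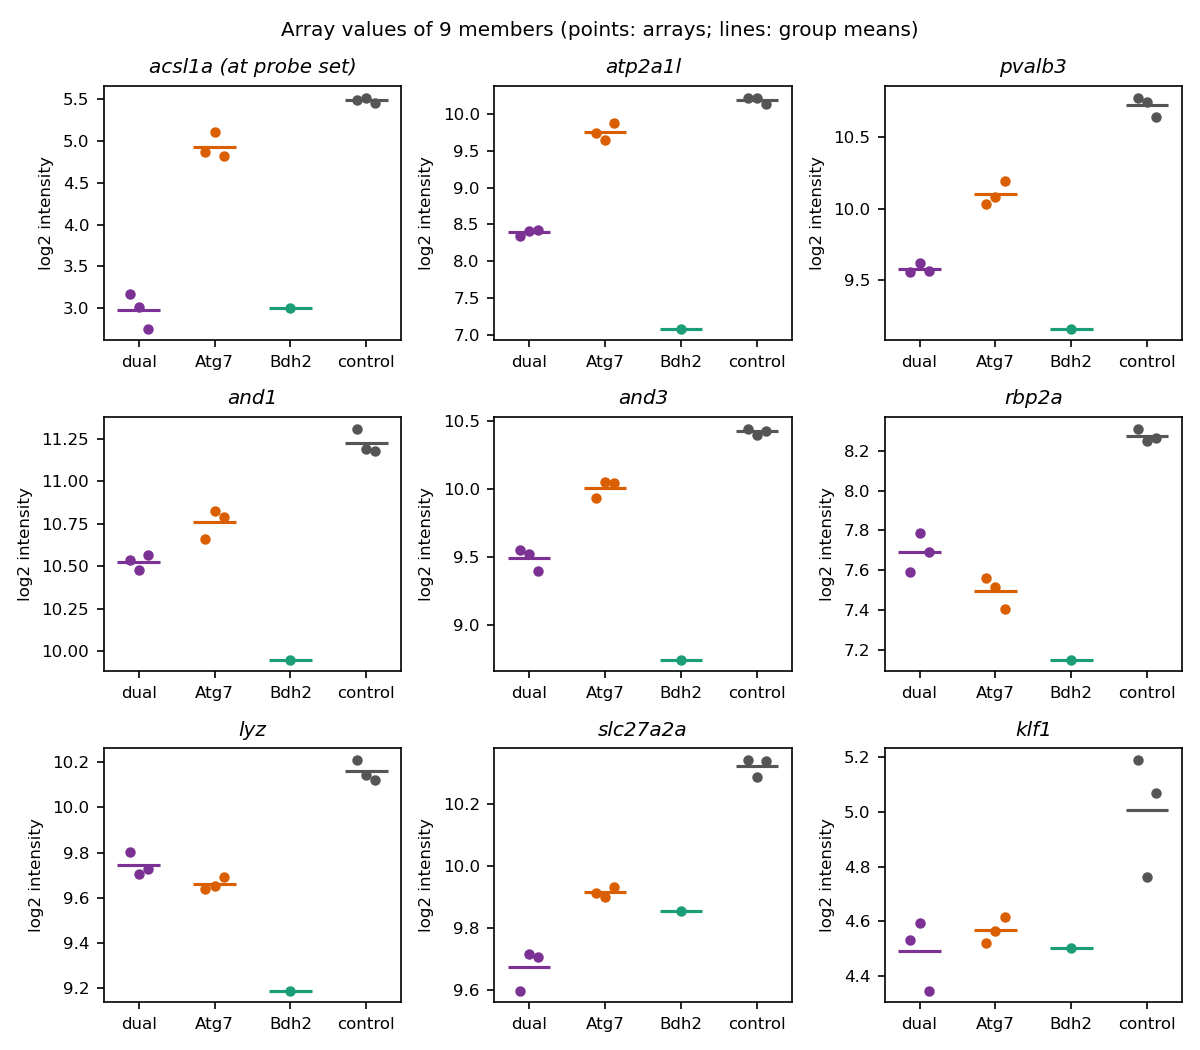
Log2 intensity of 9 members, with groups on the horizontal axis of each panel, 1 point per array and lines at the group means. In and1, and3, atp2a1l and pvalb3 the Bdh2 array is lowest and dual arrays lie between it and the Atg7 arrays, whereas in klf1 all morphant arrays lie between 4.35 and 4.62.

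Acyl-CoA synthetases activate fatty acids for breakdown or for building lipids, and 2 such genes were members, acsl1a for long chains and slc27a2a, whose mammalian counterpart acts on very long chains and in uptake. acsl1a entered with 2 of its probe sets, whose names share a number and differ only in the suffix. They are thus not taken as independent readings, and the suffix x_at marks probes that may share sequence with other transcripts. The first (Dr.20398.1.A1_at) read 3.17, 3.01 and 2.75 in dual arrays, 4.86, 5.11 and 4.82 in Atg7 arrays, 3.001 in the Bdh2 array and 5.49, 5.52 and 5.45 in control arrays. The second (Dr.20398.1.A1_x_at) read 4.1, 3.87 and 3.88 in dual arrays, 5.09, 5.20 and 5.25 in Atg7 arrays, 3.78 in the Bdh2 array and 5.71, 5.69 and 5.75 in control arrays. Dual arrays and the Bdh2 array were both low in the 2 probe sets, and Atg7 arrays stood between them and control. The low values of the first lay near the lowest on any array, 2.5, and were not shown to be above background, so the sizes of its differences are uncertain. The difference between dual and Atg7 arrays was -1.95 ± 0.10, adjusted p = 6.12e-08 in the first and -1.23 ± 0.074, adjusted p = 1.82e-07 in the second (limma), and dual minus Bdh2 was -0.022 ± 0.15 and 0.17 ± 0.10.

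The 3 other probe sets of acsl1a lay closer to control. They stood at -0.25, -0.48 and -0.031 in dual minus control, -0.23, -0.22 and -0.15 in Atg7 minus control and -0.38, -0.56 and -0.12 in Bdh2 minus control, with control levels of 7.18, 7.82 and 7.78 against 5.48 and 5.72 in the 2 members. So the size of the acsl1a difference depends on the probe set read. slc27a2a (Dr.4342.1.A1_at) read 9.60, 9.72 and 9.71 in dual arrays, 9.91, 9.90 and 9.93 in Atg7 arrays, 9.85 in the Bdh2 array and 10.34, 10.29 and 10.34 in control arrays. Dual arrays were lowest here, and the Bdh2 array lay below the Atg7 arrays and above the dual arrays. slc27a2a was lower in dual than in Atg7 arrays (-0.24 ± 0.058, adjusted p = 0.00694 by limma), and dual minus Bdh2 did not pass (-0.18 ± 0.081, adjusted p = 0.186).

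Genes of vitamin handling were rbp2a and cyp2r1. rbp2a encodes a cellular retinol-binding protein, which in mammals serves retinol uptake in the gut, and its probe set (Dr.15054.1.S1_at) read 7.59, 7.79 and 7.69 in dual arrays, 7.56, 7.52 and 7.41 in Atg7 arrays, 7.15 in the Bdh2 array and 8.31, 8.25 and 8.27 in control arrays. Atg7 arrays lay below dual arrays, in reverse to most members, and the Bdh2 array was lowest. rbp2a was the 1 member called higher in dual than in Atg7 arrays (0.20 ± 0.067, adjusted p = 0.0423 by limma), and that call ended without any 1 of control replicates 1, 2 and 3, Atg7 replicates 2 and 3 or dual replicates 2 and 3 (differences of 0.15 to 0.21, adjusted p of 0.0514 to 0.169, and 0.0146 to 0.169 over all alternatives). Dual minus Bdh2 was 0.54 ± 0.095, adjusted p = 0.00324 (limma). On a list of gut genes with 11 other measured genes, 2 fell and 0 rose in dual minus control by limma (2 and 0 at an unadjusted p under 0.05), 3 fell and 0 rose in Atg7 minus control (4 and 0 unadjusted) and 1 fell and 2 rose in Bdh2 minus control. The largest falls were those of agr2 in dual (-0.47) and Bdh2 (-0.80) and of fabp2, an intestinal fatty acid-binding protein gene, in Atg7 minus control (-0.54). The largest rise was that of the apolipoprotein gene apoa4a in Bdh2 minus control (0.70). The array's shares are those given with the fin fold list, among them 15.9% lower in dual and 3.64% lower in Atg7 minus control.

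cyp2r1, in mammals the main 25-hydroxylase of vitamin D, read 5.44, 5.41 and 5.17 in dual arrays, 5.35, 5.49 and 5.31 in Atg7 arrays, 5.004 in the Bdh2 array and 6.01, 6.02 and 6.11 in control arrays. Dual and Atg7 arrays overlapped and the Bdh2 array was below both. Neither tested comparison passed for cyp2r1 in the limma fit (-0.041 ± 0.080, adjusted p = 0.744 in dual minus Atg7 and 0.34 ± 0.11, adjusted p = 0.0774 in dual minus Bdh2). The second passed with quantile normalization or without dual replicate 3, at 0.40 and 0.42 with adjusted p between 0.0204 and 0.0232, and over all alternatives its adjusted p ranged between 0.0204 and 0.17.

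Lysozyme, lyz, is an enzyme that breaks bacterial cell walls and marks neutrophils and some macrophages in zebrafish. It was the single-symbol member on the list of macrophage and neutrophil genes. Dr.17470.1.S1_at, described below, carries several symbols, 1 of them also on that list. The lyz probe set (Dr.12602.1.S1_at) read 9.80, 9.70 and 9.73 in dual arrays, 9.64, 9.65 and 9.69 in Atg7 arrays, 9.19 in the Bdh2 array and 10.21, 10.14 and 10.12 in control arrays. The 3 dual arrays were just above the 3 Atg7 arrays, and the Bdh2 array was lower than all of them. Dual minus Atg7 was 0.082 ± 0.058, adjusted p = 0.312, and dual minus Bdh2 0.56 ± 0.082, adjusted p = 0.00101, by limma. Of 16 other measured genes on a macrophage and neutrophil list, 4 fell and 1 rose in dual, 4 fell and 3 rose in Atg7 and 9 fell and 0 rose in Bdh2 minus control (9 and 0 at an unadjusted p under 0.05, limma). Largest falls were those of cfd in dual (-1.87), lcp1 in Atg7 (-0.40) and mmp13a in Bdh2 minus control (-1.73), and the largest rises those of irg1l in dual (0.42) and of mmp9 in Atg7 minus control (1.76). Over the array 15.9% fell and 16.7% rose in dual, and 3.64% fell and 6.26% rose in Atg7 minus control. The shares in Bdh2 minus control were 13.2% lower and 15.0% higher.

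ccl27a, a chemokine gene near the low end of the array, read 3.85, 3.56 and 3.55 in dual arrays, 3.63, 4.04 and 4.36 in Atg7 arrays, 3.72 in the Bdh2 array and 4.48, 4.44 and 4.66 in control arrays, with an Atg7 SD of 0.36 (n = 3), the widest of the members there. Its dual minus Atg7 difference did not pass (-0.35 ± 0.15, adjusted p = 0.0909 by limma). It passed with quantile normalization, with an intensity trend or without Atg7 replicate 1, at -0.54 to -0.35 with adjusted p between 0.00453 and 0.0452. Without Atg7 replicate 3 it was -0.18, with an adjusted p of 0.322, the highest of the alternatives.

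klf1, known in mammals as an activator of globin and other red cell genes, was the erythroid gene left after the exclusions. It read 4.53, 4.59 and 4.35 in dual arrays, 4.52, 4.57 and 4.62 in Atg7 arrays, 4.502 in the Bdh2 array and 5.19, 4.76 and 5.07 in control arrays (Dr.12569.1.S1_at), and the lowest control array lay 0.15 above the highest morphant array. Levels in the morphant groups were within 0.076 of each other, the narrowest range of all members, and neither tested comparison passed (-0.076 ± 0.10, adjusted p = 0.616 in dual minus Atg7 by limma). Differences from control were -0.52 for dual, -0.44 for Atg7 and -0.51 for Bdh2. Of 30 other measured genes on a red cell list, which holds the globin and heme genes excluded above, 18 fell and 4 rose in dual, 13 fell and 2 rose in Atg7 and 12 fell and 2 rose in Bdh2 minus control. Their medians were -0.33, -0.23 and -0.22. Of all probe sets 15.9% fell and 16.7% rose in dual, and 3.64% fell and 6.26% rose in Atg7 minus control. The shares in Bdh2 minus control were 13.2% lower and 15.0% higher. hbbe2 fell most in dual and on the Bdh2 array (-3.51 and -3.90) and slc4a1a in Atg7 morphants (-1.62), and the largest rises were those of the biliverdin reductase gene blvrb in dual and Bdh2 (0.84 and 0.90) and of klf3 in Atg7 minus control (0.31). hbbe2 and slc4a1a, with hbae3, hbbe3, epb41b, cahz and alas2 of this list, had met the selection and were left out by name. Their falls were thus set in advance and add nothing to that of klf1.

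**Figure D3:**
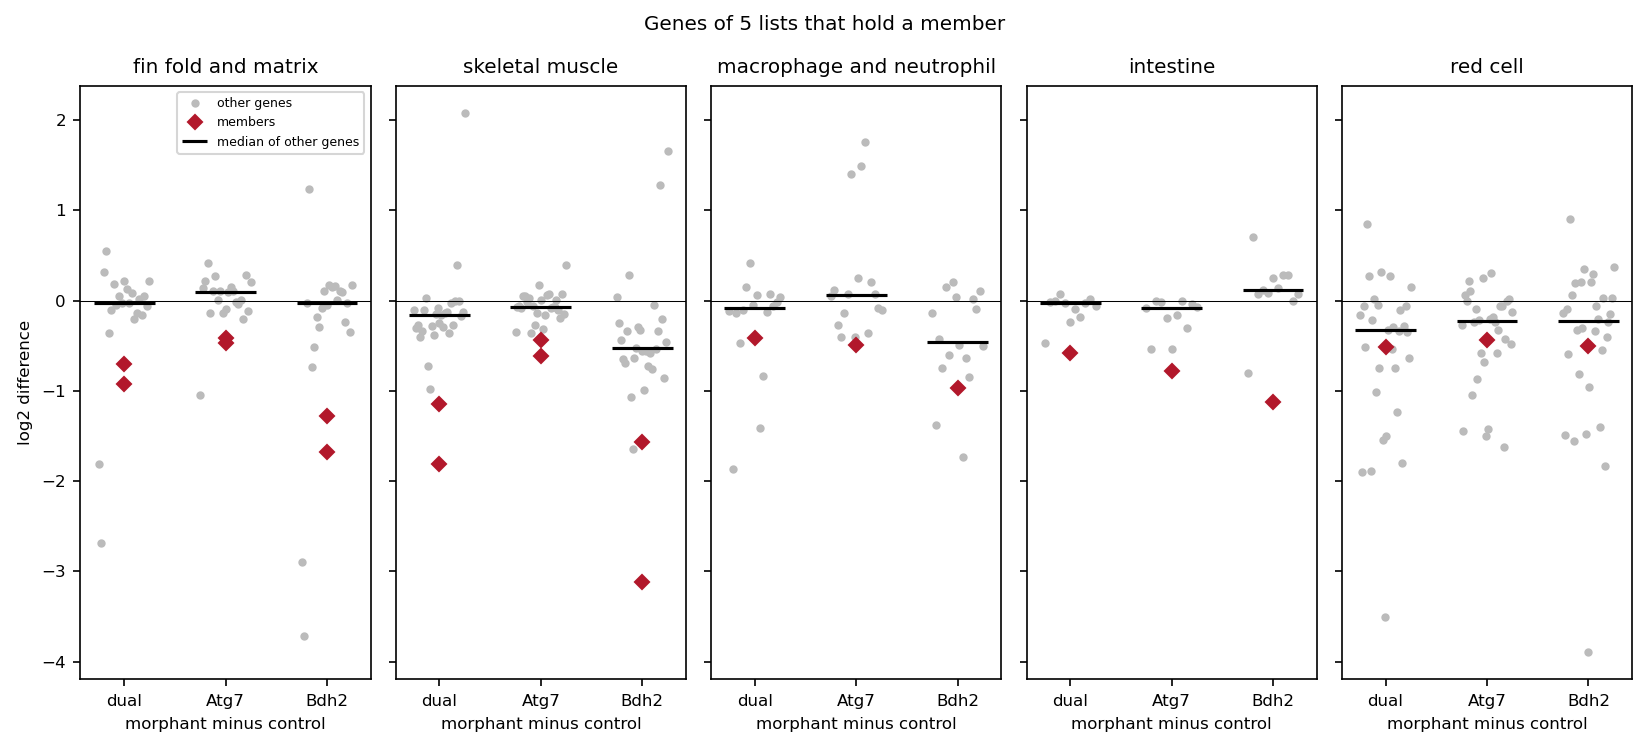
Log2 difference from control in dual, Atg7 and Bdh2 morphants for the genes of 5 lists, with members as red diamonds, other genes as grey points and the median of the other genes as a black line. Members were chosen for low values. The other genes of the fin fold list had medians of -0.029, 0.097 and -0.030, against -0.33, -0.23 and -0.22 in the red cell list. The other genes include some that had met the selection and were left out by name, and2 on the fin fold list and several on the red cell list.

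Of the remaining named members, ddx52, a DEAD-box RNA helicase gene whose probe set (Dr.13799.1.S1_x_at) may share sequence with other transcripts, read 5.47, 5.14 and 5.70 in dual arrays, 6.85, 6.63 and 6.77 in Atg7 arrays, 5.93 in the Bdh2 array and 7.33, 7.40 and 6.93 in control arrays. Control arrays of ddx52 spread widely (SD 0.25, n = 3), and the gap between the lowest control and the highest morphant array was 0.083. It was lower in dual than in Atg7 arrays (-1.31 ± 0.14, adjusted p = 2.53e-05 by limma). cox4i1l, named for its likeness to a subunit gene of cytochrome c oxidase, read 6.90, 6.64 and 6.55 in dual arrays, 7.10, 7.07 and 7.12 in Atg7 arrays, 6.56 in the Bdh2 array and 7.72, 7.67 and 7.68 in control arrays. Its dual minus Atg7 difference was -0.40 ± 0.082, adjusted p = 0.00263 by limma. Of 31 gene lists only the 5 described held a member, and the respiratory chain list did not contain cox4i1l.

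fahd2a and akr7a3, enzyme genes of the fumarylacetoacetate hydrolase and aldo-keto reductase families, were both lower in dual than in Atg7 arrays by limma (-0.41 ± 0.070, adjusted p = 0.000766 and -0.27 ± 0.067, adjusted p = 0.00876). fahd2a read 8.42, 8.37 and 8.26 in dual arrays, 8.73, 8.82 and 8.73 in Atg7 arrays, 8.30 in the Bdh2 array and 9.12, 9.10 and 9.29 in control arrays. A second fahd2a probe set was at -0.70, -0.28 and -0.56 in dual, Atg7 and Bdh2 minus control, with all morphant arrays below all control arrays. akr7a3 read 7.45, 7.64 and 7.57 in dual arrays, 7.90, 7.76 and 7.81 in Atg7 arrays, 7.82 in the Bdh2 array and 8.22, 8.25 and 8.26 in control arrays, so that the Bdh2 array lay level with the Atg7 arrays and above the dual arrays.

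caprin1b, sec31a and si:ch211-243g18.2 had morphant levels within 0.18 of each other by group. caprin1b, which encodes an RNA-binding protein, read 9.89, 9.89 and 9.87 in dual arrays, 9.97, 10.10 and 9.92 in Atg7 arrays, 9.93 in the Bdh2 array and 10.44, 10.41 and 10.48 in control arrays. All its morphant arrays lay between 9.87 and 10.10. sec31a, a gene of the COPII vesicle coat, read 5.49, 5.37 and 5.70 in dual arrays, 5.62, 5.76 and 5.34 in Atg7 arrays, 5.40 in the Bdh2 array and 5.83, 6.16 and 6.10 in control arrays, and its closest control and morphant arrays were 0.070 apart. si:ch211-243g18.2 read 6.96, 6.98 and 6.85 in dual arrays, 7.07, 7.10 and 7.09 in Atg7 arrays, 7.003 in the Bdh2 array and 7.53, 7.53 and 7.63 in control arrays. Its dual minus Atg7 difference did not pass (-0.16 ± 0.060, adjusted p = 0.0623 by limma) but did with the filter on low values (-0.16, adjusted p = 0.024), and its adjusted p ranged between 0.024 and 0.184 over the alternatives. Its 2 other probe sets also lay below control on all 7 arrays, at -0.56 and -0.40 in dual, -0.37 and -0.36 in Atg7 and -0.83 and -0.51 in Bdh2 minus control. In contrast si:ch73-15b2.5, read at 6.67, 6.61 and 6.77 in dual arrays, 7.42, 7.07 and 7.20 in Atg7 arrays, 6.75 in the Bdh2 array and 7.60, 7.70 and 7.71 in control arrays, was lower in dual than in Atg7 arrays (-0.55 ± 0.086, adjusted p = 0.000455 by limma).

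The member farthest below control was a probe set without a symbol, Dr.3374.1.S1_at. It read 4.80, 4.47 and 4.57 in dual arrays, 9.91, 9.97 and 9.91 in Atg7 arrays, 4.59 in the Bdh2 array and 10.51, 10.50 and 10.62 in control arrays. Arrays with the Bdh2 morpholino lay more than 5 log2 units below all others, and Atg7 arrays stood below control (-0.61). The probe set that shares the number in its name, that of the lysosomal protease gene ctsba, stood at 1.88, 0.82 and 2.24 in dual, Atg7 and Bdh2 minus control. With acsl1a (both probe sets), atp2a1l and ddx52, this was 1 of 5 members at -1 or below both when dual was set against Atg7 and when Bdh2 was set against control, as were 90 probe sets of the array (0.581%). The selection itself required a low Bdh2 array, so nothing is read from the members' count against that share. Dr.19575.2.A1_at, Dr.18657.2.A1_at and Dr.12502.3.S1_x_at, described below, also have a probe set sharing their number. In that order these stood at 0.039, -0.049 and -0.43 in dual and -0.041, -0.14 and -0.42 in Atg7 minus control. In Bdh2 minus control they stood at -0.062, -0.16 and -0.30, with control levels of 3.21, 3.90 and 7.01.

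Dr.23502.1.A1_at read 9.25, 9.21 and 9.23 in dual arrays, 9.96, 9.89 and 9.91 in Atg7 arrays, 8.46 in the Bdh2 array and 10.84, 10.77 and 10.81 in control arrays, and its lowest control array stood 0.81 above its highest morphant array, the widest gap of the members. It held the largest Atg7 difference, -0.89. Dr.19575.2.A1_at read 5.94, 6.06 and 5.98 in dual arrays, 6.42, 6.41 and 6.54 in Atg7 arrays, 5.35 in the Bdh2 array and 6.93, 6.90 and 6.87 in control arrays. Both followed the order of the actinodins, lower in dual than in Atg7 arrays (-0.69 ± 0.055, adjusted p = 2.01e-06 and -0.46 ± 0.061, adjusted p = 0.000128) and higher in dual than on the Bdh2 array (0.77 and 0.65, adjusted p = 8.56e-05 and 0.000587 by limma).

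The other members given by probe set name had closer dual and Atg7 levels, and of these Dr.17470.1.S1_at and Dr.12502.3.S1_x_at carried several symbols and the others none. Dr.17470.1.S1_at read 7.14, 7.14 and 7.15 in dual arrays, 7.06, 7.25 and 7.28 in Atg7 arrays, 6.76 in the Bdh2 array and 7.65, 7.63 and 7.66 in control arrays. Dr.22690.1.A1_at read 6.74, 6.82 and 6.99 in dual arrays, 6.84, 6.79 and 6.91 in Atg7 arrays, 6.38 in the Bdh2 array and 7.41, 7.24 and 7.25 in control arrays. Dual and Atg7 arrays overlapped in both, with the Bdh2 array below. In dual minus Bdh2 both were higher (0.39 ± 0.093 and 0.48 ± 0.11), as lyz was. The selection required a low Bdh2 array, which tilts this comparison upward, so nothing is read from that likeness. Dr.21393.1.A1_at read 6.03, 5.96 and 5.98 in dual arrays, 6.06, 5.79 and 6.01 in Atg7 arrays, 6.12 in the Bdh2 array and 6.59, 6.63 and 6.65 in control arrays, and here the Bdh2 array was the highest of the morphants. Dr.12502.3.S1_x_at read 6.03, 5.88 and 5.85 in dual arrays, 5.76, 5.77 and 5.97 in Atg7 arrays, 5.78 in the Bdh2 array and 6.25, 6.32 and 6.46 in control arrays. Dr.18657.2.A1_at, the dimmest member in controls, read 3.72, 3.72 and 3.75 in dual arrays, 3.42, 3.93 and 3.52 in Atg7 arrays, 3.30 in the Bdh2 array and 4.40, 4.26 and 4.35 in control arrays. These last 3 passed neither tested comparison, with dual minus Atg7 of 0.034, 0.086 and 0.11. Dr.18657.2.A1_at passed both without Atg7 replicate 2 (0.27, adjusted p = 0.0158, and 0.44, adjusted p = 0.0102, limma). Without Atg7 replicate 1 or 3 its dual minus Atg7 difference was 0.0091 or 0.059, and over all alternatives the adjusted p ranged between 0.0158 and 0.961 there and between 0.0102 and 0.221 in dual minus Bdh2.

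Over all members, 15 were lower and 1 was higher in dual than in Atg7 arrays (51.7% and 3.45% of the 29), against 17.2% and 15.8% of all probe sets, by limma with adjusted p. The median difference was -0.24, beside 0.012 over the array, and the dual and Atg7 arrays did not overlap in 20 members (69.0%), against 44.1% of probe sets. In dual minus Bdh2 10 members were higher (34.5%, against 6.53%) and 0 lower (5.53% of the array, and 3 members at an unadjusted p under 0.05), with a median of 0.14 beside -0.047. The selection put a ceiling on all morphant levels and required the single Bdh2 array to be low. This tilts dual minus Bdh2 upward and can shape dual minus Atg7 as well. These shares thus describe the members only, and nothing is read from them against the array.

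By both comparisons the members fell into 5 patterns. Shares of all probe sets are not given for these joint patterns. The selection required a low Bdh2 array, so the counts describe the members only. In 6 members (atp2a1l, pvalb3, and1, and3, Dr.23502.1.A1_at and Dr.19575.2.A1_at) dual arrays were called below Atg7 and above Bdh2. In 9 (both acsl1a probe sets, slc27a2a, ddx52, cox4i1l, fahd2a, akr7a3, si:ch73-15b2.5 and Dr.3374.1.S1_at) they were called below Atg7 with no call against Bdh2. In 3 (lyz, Dr.17470.1.S1_at and Dr.22690.1.A1_at) they were called above Bdh2 with no call against Atg7. rbp2a alone was called above both, and its call against Atg7 ended in 8 alternatives. The call of and1 against Atg7 and those of pvalb3 and Dr.17470.1.S1_at against Bdh2 also ended in some alternatives. The other 10, among them klf1, caprin1b, vcanb and cyp2r1, had no call in either, which does not show that their levels were equal.

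**Figure D4:**
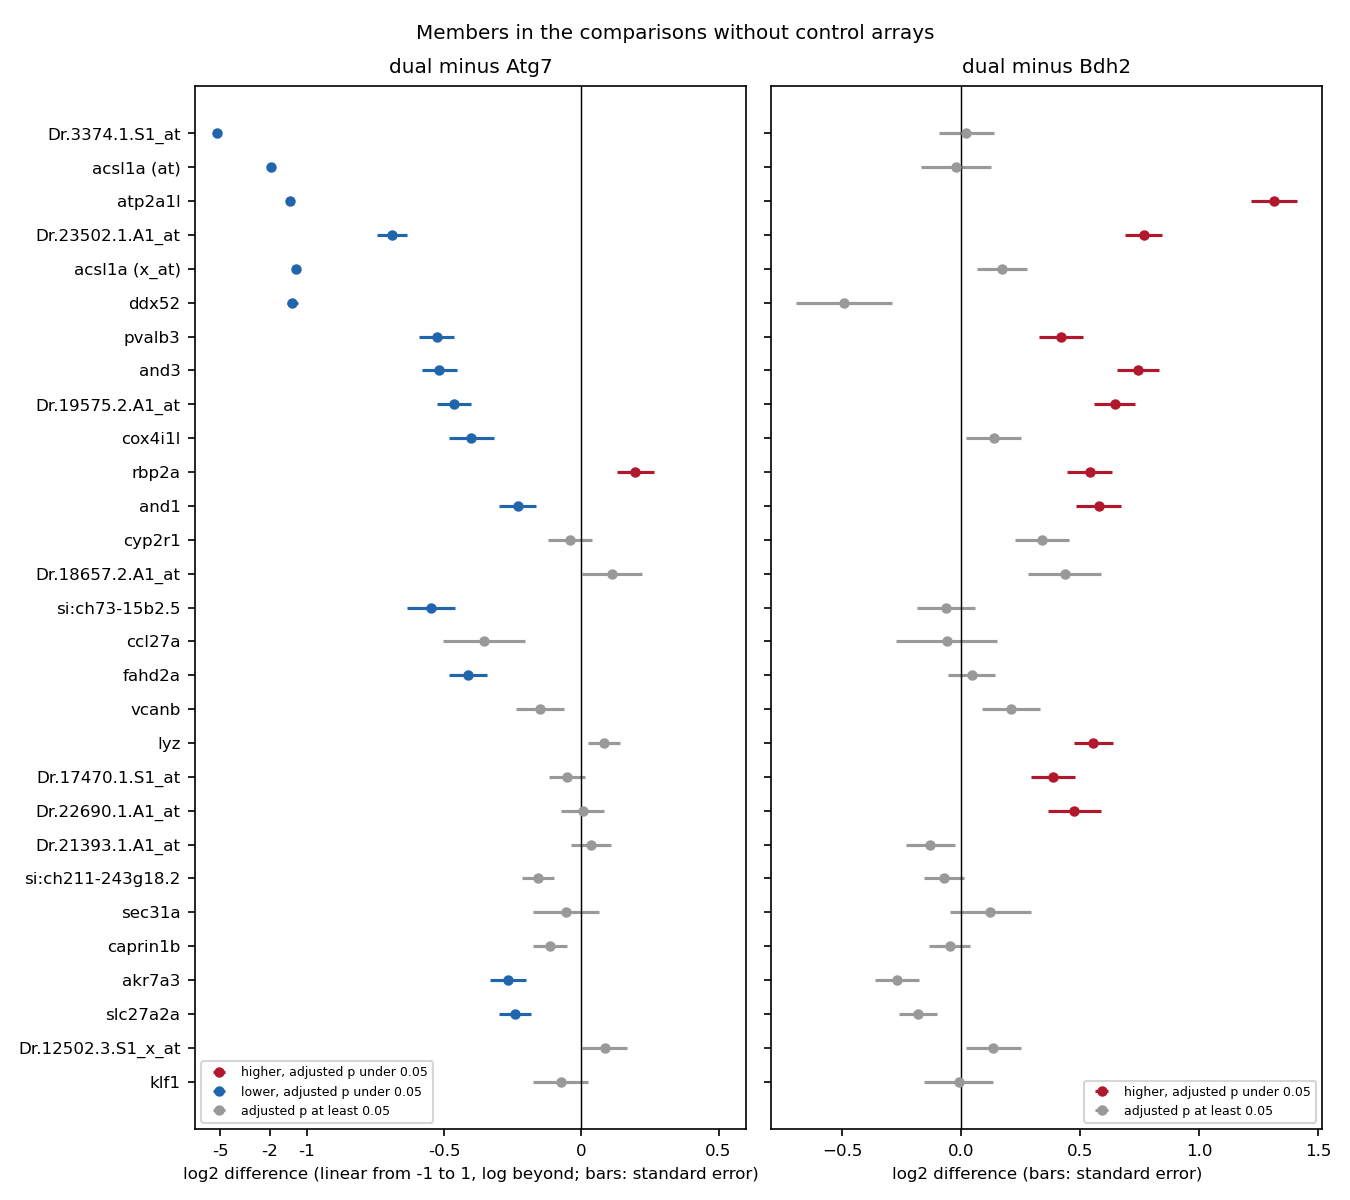
Log2 difference of each member in dual minus Atg7 (left, with a log scale beyond -1) and dual minus Bdh2 (right), with standard errors of the limma fit as bars and colour for calls at an adjusted p of 0.05. On the left 15 members are called lower and rbp2a higher, and on the right 10 are called higher.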

How the data were processed

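The deposited table held log2 intensities, 1 value per probe set, from 10 arrays, and Affymetrix Expression Console is named in the submitters' processing notes. How the authors summarised, background-corrected and normalized these log2 values is not given in the sources used here, and the scale was read from their range, 2.48 to 14.9. Of 15617 probe sets, 115 AFFX controls were left out. Gene symbols came from the platform annotation, updated through Entrez IDs to RefSeq (GRCz12tu), where all 21 single-symbol members matched. All arrays were fitted with limma 3.58.1 in R 4.3.3 (lmFit and eBayes, 4 groups, 6 residual degrees of freedom), after a check on simulated data. Nothing in the labels says that replicates came from separate clutches, so p-values measure a spread that may be technical. The number of arrays limits the precision.

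The members and lists were chosen with earlier results of these data known. Lists took the probe set with the highest mean per gene. Named were all members, the genes just outside the threshold, the largest fall and rise of each list, and, after their values were seen, bdh2, and2 and ctsba. Alternatives were other fall thresholds, quantile normalization, a filter on low values, a replicate block, an intensity trend, a fit without the Bdh2 array, and leaving out each triplicate array. The planned promoter sequences were not used here.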

Additional observations from a re-analysis of the deposited data

Results flagged for a closer look

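In 2 members the measured differences with the Bdh2 morpholino had opposite signs on the 2 backgrounds, with no overlap between arrays. Dual and Atg7 arrays did not overlap in 44.1% of all probe sets, so this alone says little. rbp2a was higher on all 3 dual arrays than on all 3 Atg7 arrays (0.20), a call that 8 alternatives ended. Its value on the Bdh2 array lay below all 3 control arrays (-1.13). For lyz dual minus Atg7 was 0.082, not past the threshold, so no rise is shown. Its lowest dual array read 9.70 and its highest Atg7 array 9.69. On the Bdh2 array lyz was lower than in controls (-0.97). The difference between the backgrounds was not tested, since the selection itself required the Bdh2 array to be low.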

How the results depend on the processing

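The member count of 29 became 78 with a fall of at least 0.3 and 11 with at least 0.5, the first holding all 29, and 19 with the filter on low values, which removes dim probe sets by construction. With quantile normalization it was 31, of which 27 were shared. Leaving out 1 array gave 28 to 36 members, with 24 to 28 shared. The 15 members lower in dual than in Atg7 arrays numbered 13 to 16 under every alternative run, 14 to 16 without 1 array. The single call in the other direction, rbp2a, became 0 with the replicate block and was 0 to 1 without 1 array. Of the calls in dual minus Bdh2, 10 higher became 8 to 11 over the alternatives (10 to 11 without 1 array), and 0 lower became 1 with the filter on low values (akr7a3, -0.27, adjusted p = 0.0336). Replicate numbers are shared across groups, but deviations of same-numbered arrays correlated between -0.375 and 0.197, so the numbers were not taken as pairs. Beside rbp2a, the replicate block ended the dual minus Bdh2 calls of pvalb3 (0.41, adjusted p = 0.0569) and Dr.17470.1.S1_at (0.34, adjusted p = 0.0877), leaving 8. ccl27a and Dr.18657.2.A1_at gained a call in dual minus Atg7 without Atg7 replicate 1 (-0.54) and without Atg7 replicate 2 (0.27), and si:ch211-243g18.2 with the filter on low values (-0.16, adjusted p = 0.024). Of 763 recomputed member differences in the 2 tested comparisons, 741 kept their side of the threshold, 13 lost and 9 gained a call, and no called difference changed sign. The medians over the members, an addition made after seeing the data, ranged from -0.73 to -0.68 in dual, -0.50 to -0.47 in Atg7 and -0.99 to -0.96 in Bdh2 minus control.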

Other observations

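Members that are neighbours along a chromosome were looked for in the gene order of GRCz12tu. The nearest pair of named members, and1 and cox4i1l, stood 48 protein-coding genes apart, and and1 and lyz stood 50 apart on the same chromosome. The muscle genes atp2a1l and pvalb3 were 92 apart. No pair of named members was adjacent.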
